A study of Nothobranchius furzeri with 9 samples.

Results

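The dystrophin-glycoprotein complex and the membrane repair machinery of muscle are described here through 15 entries of the expression table, out of 39396 in all. The entries were taken by name: each entry whose gene name was DMD, DAG1, SGCA, SGCB, SGCD, DTNA, DYSF or CAV3 (8 names) was taken, also with an added A or B or a copy mark. The 8 names themselves were chosen with earlier results of these data known. DMD, DAG1 and DYSF had 3 entries each, SGCD had 2 and the other names had 1, and every entry is given with its own number because its values were kept apart. Of the 15 entries, 14 had a mean of at least 5 normalized counts and were among the 17454 entries tested. The exception was SGCD 532833, with 6, 3 and 2 normalized counts in young fish, 5, 4 and 4 in adult fish and 5, 3 and 6 in old fish. The samples were whole skeletal muscle of male turquoise killifish, *Nothobranchius furzeri* (strain MZM-04/10), a short-lived fish used as a model of aging. Fish were young (5 weeks), adult (20 weeks) or old (35 weeks), with 3 fish per age and 1 library of total RNA per fish, and all were taken fasted and at the same hour. No allele, agent or treatment separated the groups, and young fish were still growing, so growth and age cannot be told apart in comparisons with them.

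Dystrophin is a long rod inside the muscle fibre that ties the actin cytoskeleton to dystroglycan, which crosses the membrane and holds laminin in the matrix around the fibre. Sarcoglycans brace dystroglycan from the side, and dystrobrevins bind dystrophin and carry signalling proteins. Dysferlin is a calcium-binding membrane protein needed to patch tears in the fibre surface, and caveolin-3 shapes the small membrane pits of muscle called caveolae. These roles are known mainly from humans and mice, in which loss of most of these proteins causes muscular dystrophy, while loss of dystrophin or dystroglycan also detaches or damages fibres in zebrafish.

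The libraries held an estimated 7.96 to 14.23 M reads on genes, with the lowest value in old replicate 3. Values are normalized counts, that is reads per entry divided by 1 factor per library and rounded by the authors, so they compare ages within an entry but not the levels of different genes, for which lengths were not used. In bulk tissue, fewer cells of a type and less RNA per cell cannot be told apart. Skeletal muscle fibre markers took 31.5 to 33.2% of the counts of young, 30.2 to 37.6% of adult and 33.9 to 35.7% of old libraries, led by titin entries, while CKMA and 1 NEB entry were at 0 and ACTA1, MYLZ3 and TNNC2 had no entry. Some markers of other cells moved with age. Summed fibroblast markers ranged over 95413 to 120719 normalized counts in young fish, 34702 to 72600 in adult fish and 28808 to 72519 in old fish. Most of each sum came from the collagen entries COL1A1A, COL1A1B and COL1A2. By the test described below, those 3 of the 10 tested entries were lower at both later ages than in young muscle. No other entry of the list passed as lower, and PDGFRA passed as higher in adult muscle. Summed Schwann and glial markers ranged over 8677 to 10629, 15988 to 21126 and 20670 to 24256 in young, adult and old muscle, most of it from PRX 85341 in adult and old muscle. The 12 entries of that list with other names summed to 3506 to 6629 in young fish, 4177 to 4393 in adult fish and 3972 to 4846 in old fish. That sum hides falls of single entries. By the same test 5 of the 15 tested entries were lower in old than in young muscle, GFAP, PLP1B, MBPA, S100B and SOX10 294839. Only PRX 85341 was higher. GFAP had 180 to 898 in young, 0 to 5 in adult and 0 to 3 in old libraries. Leukocyte marker sums ranged over 259 to 390 in young, 486 to 1285 in adult and 431 to 479 in old fish. Endothelial sums were 546 to 684, 732 to 1006 and 616 to 842. Smooth muscle sums were 797 to 1273, 810 to 1006 and 734 to 865. Of 8 tested leukocyte entries, 5 passed as higher in adult and 2 in old against young muscle. Of 8 endothelial entries, 4 and 2 did. None of either list passed as lower. Of 4 smooth muscle entries, 1 was lower in adult and 2 in old muscle, and 0 were higher. Among all tested entries, 16.2% passed as higher in adult and 12.9% in old against young muscle. As lower, 17.2% and 14.3% passed. The part of these cell types in the results below was not tested.

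Old muscle had a higher mean than young muscle on the log2 scale in 13 of the 14 entries, against 48.5% of all tested entries, and a lower mean in CAV3. Differences were tested with limma on log2(value + 1), with 1 mean per age in a fit of all 9 libraries, and an entry is said to have risen or fallen where the p adjusted over all tested entries (Benjamini-Hochberg) was 0.05 or less. By that rule 8 entries rose in old against young muscle, all 3 of DMD, all 3 of DYSF, SGCB 519030 and DAG1 195383, and none fell. This is 57.1% of the 14, against 27.1% of all tested entries in either direction and 12.9% in the higher direction. The 3 entries of DMD and the 3 of DYSF are not separate genes by name, so the counts here are of entries and not of independent genes. With the added limit of a 2-fold change, 1 entry was called, DYSF 240877, against 17.7% of all tested entries (7.91% higher and 9.84% lower). The median log2 fold change of the 14 was 0.67, against -0.03 over all tested entries. In adult against young muscle 12 entries were higher, against 49.7% of all, and 4 rose (28.6%), DMD 209990 and all 3 of DYSF, against 33.4% of all tested entries in either direction and 16.2% in the higher one. None passed the 2-fold limit in limma, against 22.1% of all (10.7% higher and 11.4% lower), while 9 of the 14 had an unadjusted p under 0.05, against 43.5% of all. The median log2 fold change was 0.43, against -0.0045 over all tested entries. In old against adult muscle 11 entries were higher, against 49.1% of all, with a median of 0.18, and limma gave 0 entries at the adjusted p and 2 at an unadjusted p under 0.05 (20.4% of all tested entries had one), against 2.65% of all at the adjusted p and 2.09% with the 2-fold limit (0.825% higher and 1.26% lower). The old against young and adult against young comparisons share the young libraries.

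**Figure D1:**
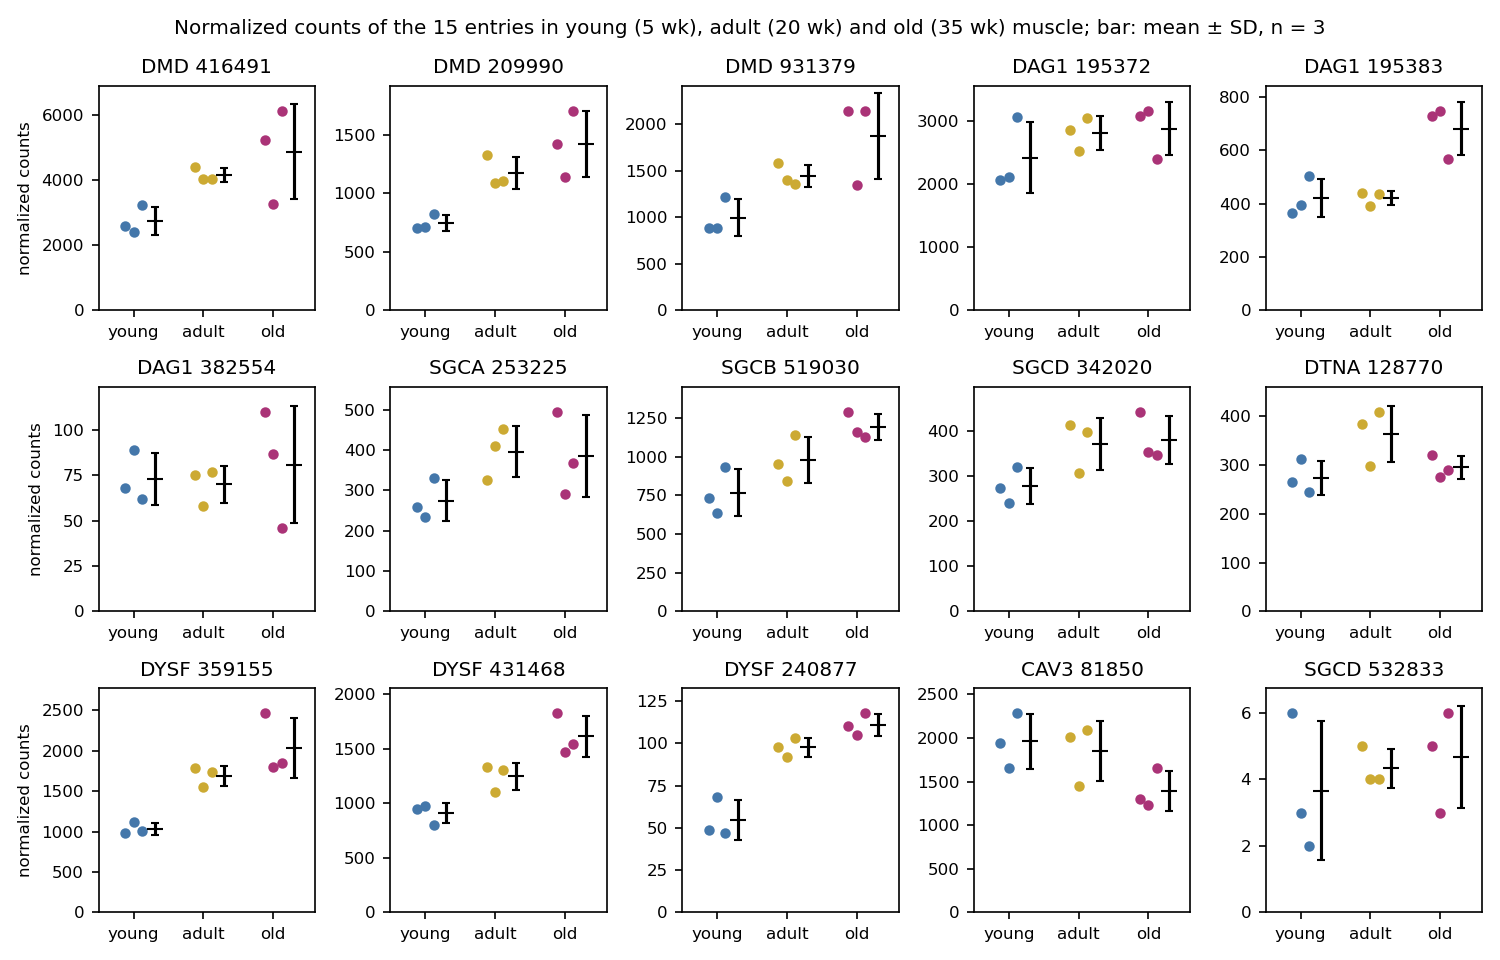
Normalized counts (y axis, linear, from 0) of each of the 15 entries in the 3 young, 3 adult and 3 old libraries (points, x axis) with the mean ± SD beside them (n = 3). All 3 DMD and all 3 DYSF entries have every adult and every old point above every young point, while CAV3 81850 is lowest on average in old muscle.

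Dystrophin, the membrane anchor of the complex, had its highest mean in old and its lowest in young muscle in all 3 DMD entries. DMD 416491 had 2598, 2414 and 3252 normalized counts in young fish, 4414, 4044 and 4030 in adult fish and 5235, 3284 and 6138 in old fish. Every adult and old library lay above every young library, whereas old replicate 2 was below all adult libraries and the other old libraries above them. The means were 2755 ± 440 in young fish, 4163 ± 218 in adult fish and 4886 ± 1459 in old fish (SD, n = 3 each). Old muscle was 1.73-fold above young muscle (95% interval 1.24 to 2.41, log2 fold change 0.79, SE 0.22, adjusted p = 0.021). Adult muscle was 1.52-fold above young muscle (1.09 to 2.12), which missed the limit with an adjusted p of 0.0521. For old against adult muscle the estimate was 1.14-fold (0.815 to 1.58, adjusted p = 0.671), and it turned to a log2 fold change of -0.0044 without old replicate 3.

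The other DMD entries had the same order of ages. DMD 209990 had 706, 712 and 826 normalized counts in young fish, 1331, 1088 and 1106 in adult fish and 1425, 1140 and 1706 in old fish. It rose 1.57-fold in adult (95% interval 1.21 to 2.03, adjusted p = 0.0135) and 1.88-fold in old muscle (1.45 to 2.44, adjusted p = 0.0031) against young muscle. The young values were close together and apart from all others, and adult and old values overlapped. DMD 931379 had 882, 883 and 1223 in young fish, 1583, 1398 and 1353 in adult fish and 2143, 1345 and 2137 in old fish. It rose 1.86-fold in old against young muscle (1.36 to 2.54, adjusted p = 0.0087), and the adult estimate was 1.46-fold (1.07 to 2.00, adjusted p = 0.0586). As in the other DMD entries, old replicate 2 was the lowest of the old libraries. Without it all 3 DMD entries passed the 2-fold limit in old against young muscle, with log2 fold changes of 1.05, 1.06 and 1.12. The adjusted p of DMD 416491 in old against young muscle was above 0.05 without young replicate 1 (0.0673), young replicate 2 (0.0852), old replicate 1 (0.0653) or old replicate 3 (0.0631). That of DMD 209990 in adult against young muscle was above 0.05 without young replicate 2 (0.0534) or adult replicate 1 (0.0516), and with equal totals (log2 fold change 0.53, adjusted p = 0.0856). For DMD 416491 in adult against young muscle it was at or under 0.05 without old replicate 2 (0.0139) or old replicate 3 (0.0319), and for DMD 931379 without young replicate 3 (0.0408) or old replicate 2 (0.0225).

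The 3 DMD entries varied together from library to library. Their pairwise Pearson correlations of log2 values over the 9 libraries were 0.956 to 0.972, as a description of points that share libraries and ages. The ratio of DMD 416491 to DMD 209990 within a library was 3.68, 3.39 and 3.94 in young fish, 3.32, 3.72 and 3.64 in adult fish and 3.67, 2.88 and 3.60 in old fish, and the ages overlapped. Whether the entries are pieces or copies of the gene was not tested. The RefSeq annotation of another assembly of this fish, NfurGRZ-RIMD1, lists 1 gene for each of the 8 names, and reads that fit several places were left out of the deposited counts.

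Dystroglycan is made as a single chain and cut into an outer part that binds laminin and a membrane part that binds dystrophin, and its 3 DAG1 entries did not share an age pattern. The most abundant, DAG1 195372, had 2067, 2119 and 3065 normalized counts in young fish, 2858, 2527 and 3047 in adult fish and 3072, 3159 and 2393 in old fish. Young replicate 3 lay inside the range of the old libraries, and the groups overlapped in every comparison. Old against young muscle gave 1.20-fold (95% interval 0.904 to 1.59, adjusted p = 0.316) and adult against young muscle 1.18-fold (0.888 to 1.56, adjusted p = 0.353).

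DAG1 195383 was higher in old muscle than at both other ages. It had 367, 394 and 503 normalized counts in young fish, 439, 392 and 437 in adult fish and 729, 748 and 569 in old fish. All old libraries lay above all others, while young and adult libraries overlapped. It rose 1.62-fold in old against young muscle (95% interval 1.25 to 2.09, log2 fold change 0.70, SE 0.17, adjusted p = 0.0116). In old against adult muscle it was 1.60-fold higher (1.24 to 2.07), the smallest adjusted p of the 14 entries in that comparison, which missed the limit at 0.0573 and passed it without old replicate 3 (0.0476). In old against young muscle it missed the limit by little without young replicate 1 (adjusted p = 0.0502). The ratio of DAG1 195383 to DAG1 195372 within a library was 0.178, 0.186 and 0.164 in young fish, 0.154, 0.155 and 0.143 in adult fish and 0.237, 0.237 and 0.238 in old fish. The old ratios were above all others and the adult ratios below all others. This ratio was picked after its values were seen and was not tested. The sparse entry DAG1 382554 had 68, 89 and 62 in young fish, 75, 58 and 77 in adult fish and 110, 87 and 46 in old fish, with the lowest and the highest library both among the old.

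The sarcoglycans stiffen the complex within the membrane, and SGCB was the member of this group that rose. SGCB 519030, β-sarcoglycan, had 732, 635 and 936 normalized counts in young fish, 952, 843 and 1138 in adult fish and 1289, 1159 and 1128 in old fish. All old libraries were above all young ones, and the adult libraries overlapped with both. It rose 1.57-fold in old against young muscle (95% interval 1.20 to 2.05, log2 fold change 0.65, SE 0.17, adjusted p = 0.0184), while adult against young muscle gave 1.28-fold (0.982 to 1.67, adjusted p = 0.14). That difference missed the limit without young replicate 1 (adjusted p = 0.0597), young replicate 2 (0.0862) or old replicate 1 (0.0568).

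SGCD 342020, δ-sarcoglycan, had 273, 241 and 321 normalized counts in young fish, 412, 306 and 398 in adult fish and 442, 353 and 347 in old fish. The old libraries did not overlap with the young ones, but its 1.37-fold difference (95% interval 1.04 to 1.80) had an adjusted p of 0.0822. SGCA 253225, α-sarcoglycan, which is limited to muscle in mammals, had 259, 233 and 331 in young fish, 326, 410 and 451 in adult fish and 494, 292 and 368 in old fish. Both ages overlapped with young muscle, with 1.38-fold in old (0.994 to 1.93, adjusted p = 0.131) and 1.44-fold in adult muscle (1.04 to 2.01, adjusted p = 0.0832). Without old replicate 2, the old against young value of SGCA passed the limit (adjusted p = 0.0495).

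DTNA, α-dystrobrevin, which binds dystrophin and the syntrophins, had its highest mean in adult muscle. DTNA 128770 had 265, 313 and 245 normalized counts in young fish, 384, 299 and 409 in adult fish and 321, 276 and 289 in old fish. The ages overlapped in every comparison. Adult against young muscle gave 1.32-fold (95% interval 1.02 to 1.71, adjusted p = 0.0893) and old against young muscle 1.08-fold (0.835 to 1.396, adjusted p = 0.661). Without adult replicate 2, the adult against young value passed the limit (log2 fold change 0.54, adjusted p = 0.0435). DTNB 888225, the related β-dystrobrevin, had 1659, 2350 and 2272 in young fish, 4028, 3765 and 3028 in adult fish and 6644, 3836 and 4758 in old fish. It was called 2.39-fold higher in old against young muscle (log2 fold change 1.26, SE 0.22, adjusted p = 0.0022), and its log2 fold change was 0.98, under the 2-fold limit, with equal library totals. A sparse entry also named for β-dystrobrevin, DTNBB 173826, went the other way against young muscle. Its log2 fold changes were -2.56 in adult and -2.97 in old muscle, and its values are given below.

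Dysferlin, the membrane repair protein, rose in all 3 DYSF entries at both later ages against young muscle. DYSF 359155 had 981, 1117 and 1004 normalized counts in young fish, 1789, 1549 and 1736 in adult fish and 2469, 1803 and 1851 in old fish. In the values as deposited the 3 ages did not overlap, and old replicate 1 stood above all other libraries. Means were 1034 ± 72.8, 1691 ± 126 and 2041 ± 371 in young, adult and old muscle (SD, n = 3 each). The entry was 1.63-fold higher in adult (95% interval 1.29 to 2.07, log2 fold change 0.71, SE 0.16, adjusted p = 0.0054) and 1.96-fold higher in old muscle (1.54 to 2.48, log2 fold change 0.97, adjusted p = 0.0014) against young muscle. Old against adult muscle gave 1.20-fold (0.944 to 1.52, adjusted p = 0.374), so the separation of those ages did not pass the test. With equal totals, the old against adult log2 fold change was 0.10 for this entry. It was 0.21 for DYSF 431468 and 0.02 for DYSF 240877 under that scaling.

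DYSF 431468 had 950, 977 and 803 normalized counts in young fish, 1333, 1106 and 1303 in adult fish and 1826, 1472 and 1539 in old fish. Again no ages overlapped in the values as deposited. It rose 1.37-fold in adult (95% interval 1.09 to 1.72, adjusted p = 0.0375) and 1.77-fold in old muscle (1.41 to 2.23, adjusted p = 0.0028) against young muscle. The adult value lost its adjusted p without any of the 3 young libraries (0.0645 to 0.144), without adult replicate 1 (0.108) or without adult replicate 3 (0.102), and also with equal totals (log2 fold change 0.34, adjusted p = 0.204) or equal totals without the 20 most abundant entries (0.35, 0.112). DYSF 240877, the least abundant, had 49, 68 and 47 in young fish, 98, 92 and 103 in adult fish and 110, 105 and 118 in old fish. Its ages were apart as well, and the adult and old values were close to each other. It rose 1.79-fold in adult (1.34 to 2.404, adjusted p = 0.0065) and 2.04-fold in old muscle (1.52 to 2.73, log2 fold change 1.03, SE 0.19, adjusted p = 0.0031), and the old value is the single call among the members. That call rested on the 2-fold limit: the log2 fold change was 0.96 without young replicate 1, 0.93 without young replicate 3 and 0.98 without old replicate 3, each at an adjusted p under 0.05. Without young replicate 2, the adult value of this entry also passed the 2-fold limit (log2 fold change 1.01), and without old replicate 2 the old value of DYSF 359155 did (1.05).

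Groups that did not overlap in the values as deposited were counted over the 14 tested entries. Between old and young muscle, 9 entries (64.3%) were higher in every old library than in every young one, against 19.6% of all tested entries, and none was lower, against 22.4%. Adult against young muscle gave 6 (42.9%), all of DMD and DYSF, against 23.9%, with none lower, against 26.3%. Old against adult muscle gave 4 (28.6%), all of DYSF and DAG1 195383, against 10.7%, with none lower, against 10.3%. These entries share names, and the 3 of DMD and the 3 of DYSF are not separate genes by name. Non-overlap in old muscle was not particular to them. Of the 17 tested entries of skeletal muscle fibre markers, 10 were higher in every old library than in every young one, and 0 were lower. The median log2 fold change of those 17 in old against young muscle was 0.38. In adult against young muscle, 3 of the 17 were higher without overlap and 4 lower. All these counts were not repeated under other scalings. DMD 416491 had 3284 of 14.41 M normalized counts in old replicate 2 and 3252 of 11.41 M in young replicate 3. Relative to library totals, old and young muscle thus overlapped in it, as in DMD 931379, SGCB 519030 and SGCD 342020. DYSF 359155 had 1803 of 14.41 M in old and 1549 of 9.405 M in adult replicate 2. On that scale adult and old muscle overlapped in all 3 DYSF entries.

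**Figure D2:**
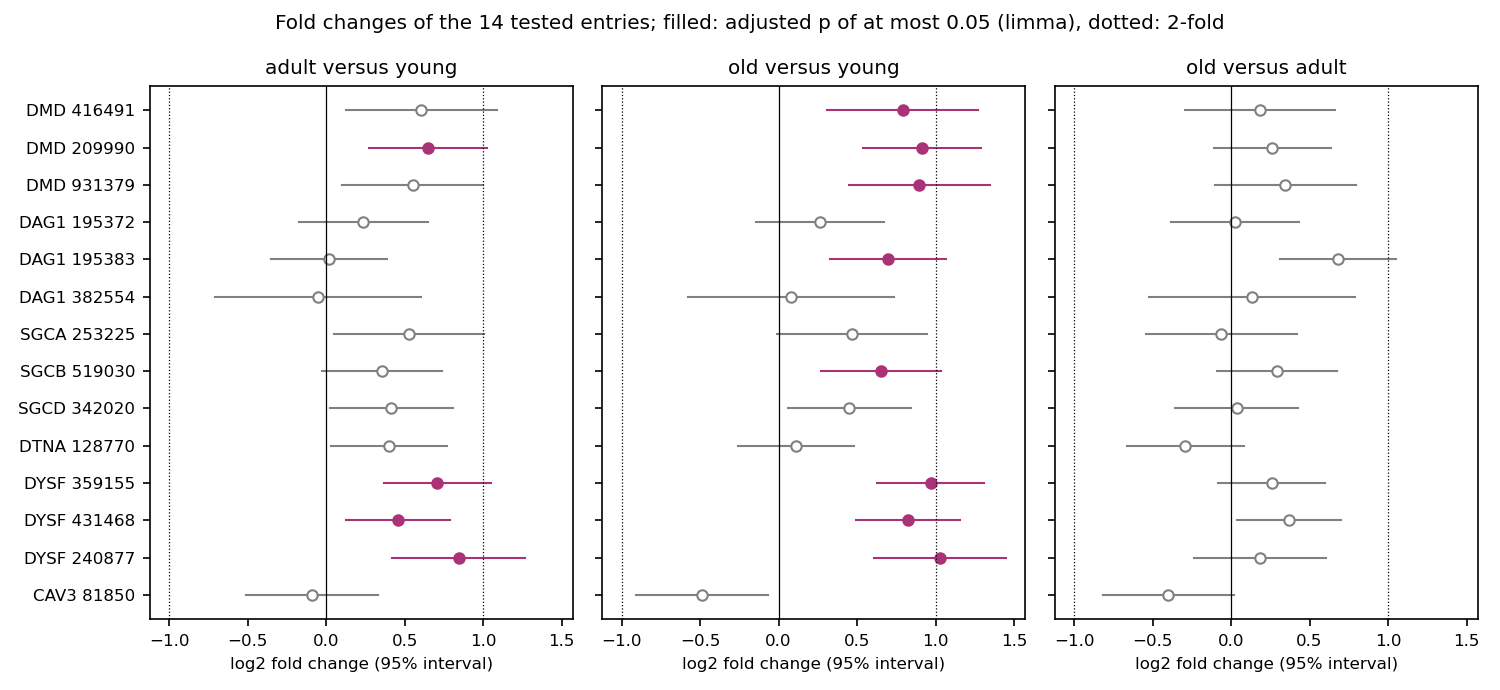
Log2 fold changes (points, x axis) with 95% intervals (lines) of the 14 tested entries in adult versus young, old versus young and old versus adult muscle. Filled points passed the limma test (adjusted p up to 0.05) and dotted lines mark a 2-fold change; in old versus young muscle the DMD, DYSF, SGCB 519030 and DAG1 195383 points are filled, and in old versus adult muscle none is.

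Caveolin-3, the muscle caveolin, was the exception in direction in old against young muscle. CAV3 81850 had 1937, 1659 and 2287 normalized counts in young fish, 2007, 1453 and 2088 in adult fish and 1303, 1229 and 1659 in old fish. Adult and young libraries overlapped, and old replicate 3 equalled the lowest young library. Means were 1961 ± 315, 1849 ± 346 and 1397 ± 229.9 in young, adult and old muscle (SD, n = 3 each). Old against young muscle gave a log2 fold change of -0.49 (95% interval -0.91 to -0.07, SE 0.19), with an adjusted p of 0.0781 that did not pass the limit and an unadjusted p of 0.0258. Without old replicate 3, the library with the fewest reads, it was -0.62 with an adjusted p of 0.0442. Old against adult muscle gave -0.40 (adjusted p = 0.268) and adult against young muscle -0.09 (adjusted p = 0.748), which turned to 0.07 without adult replicate 2.

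The scaling of the libraries bears on these values, because the normalized totals differed between ages, young libraries holding 10.23 to 11.41 M, adult ones 9.405 to 13.1 M and old ones 11.5 to 14.41 M. When all libraries were scaled to equal totals, the median of all tested entries moved to -0.29 in old against young, -0.11 in adult against young and -0.17 in old against adult muscle. Under that scaling 10 of the 14 entries were positive in old against young muscle, with a median of 0.40, and the signs of DAG1 195372, DAG1 382554 and DTNA 128770 turned negative (-0.01, -0.20 and -0.16). The entries that passed were then DYSF 359155 (log2 fold change 0.69, adjusted p = 0.0188), DYSF 240877 (0.75, 0.0467), DMD 209990 (0.64, 0.0481) and, in the lower direction, CAV3 (-0.77, 0.0145). DYSF 431468 (0.55) was at an adjusted p of 0.0506, while DMD 416491 (0.51) was at 0.16, DMD 931379 (0.62) at 0.0786, DAG1 195383 (0.42) at 0.108 and SGCB (0.37) at 0.157. Scaling by 1 factor per library moves the log2 values of all entries in that library nearly alike. Values relative to the median of all entries therefore stay nearly fixed by construction and cannot tell the scalings apart. With equal totals they were 0.99 for DYSF 359155, 0.81 for DMD 416491, 0.67 for SGCB and -0.47 for CAV3. With equal totals over all but the 20 most abundant entries, which held 49.8 to 60.6% of the counts, CAV3 was at -0.68 (adjusted p = 0.0221) and all 3 DYSF entries kept an adjusted p of at most 0.05 (0.0037 to 0.0142). DMD 209990 (0.0159), DMD 931379 (0.0302) and DAG1 195383 (0.0244) kept it as well. DMD 416491 (log2 fold change 0.60, adjusted p = 0.0773) and SGCB (0.46, 0.0504) lost it.

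**Figure D3:**
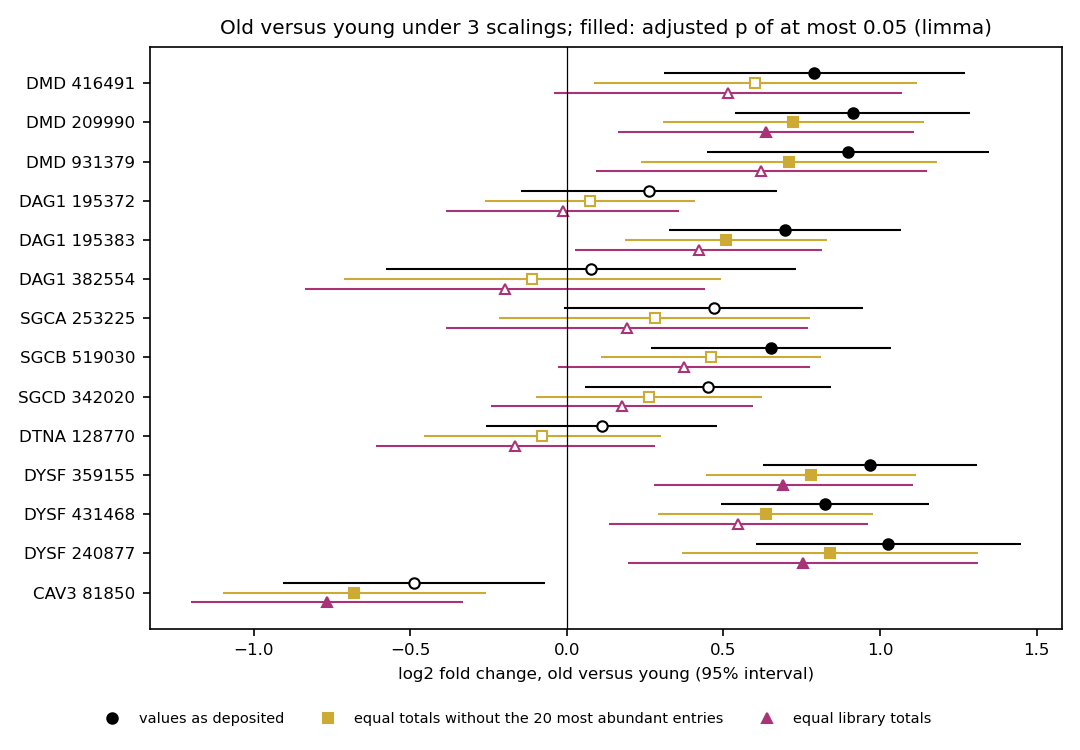
Log2 fold changes in old versus young muscle (x axis, with 95% intervals) of the 14 tested entries under 3 scalings of the libraries: as deposited (circles), equal totals without the 20 most abundant entries (squares) and equal totals (triangles). Filled marks passed the limma test (adjusted p up to 0.05); each entry moves to lower values from circle to triangle, DAG1 195372, DAG1 382554 and DTNA 128770 change sign with equal totals, and CAV3 81850 is filled under both other scalings.

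Ratios of entries within a library do not depend on the scaling. Among 12 ratios computed, chosen after the values were seen and not tested, that of CAV3 to DYSF 359155 was 1.98, 1.49 and 2.28 in young fish, 1.12, 0.938 and 1.20 in adult fish and 0.528, 0.682 and 0.896 in old fish. No ages overlapped, and each later age was lower. The ratio of CAV3 to DMD 416491 was 0.746, 0.687 and 0.703 in young fish, 0.455, 0.359 and 0.518 in adult fish and 0.249, 0.374 and 0.270 in old fish. Both later ages were below young muscle, and they overlapped with each other. The ratio of SGCD 342020 to SGCB 519030 was 0.373, 0.380 and 0.343 in young fish, 0.433, 0.363 and 0.350 in adult fish and 0.343, 0.305 and 0.308 in old fish. DMD 416491 to DYSF 359155 overlapped at all ages, with 2.65, 2.16 and 3.24 in young fish, 2.47, 2.61 and 2.32 in adult fish and 2.12, 1.82 and 3.32 in old fish.

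**Figure D4:**
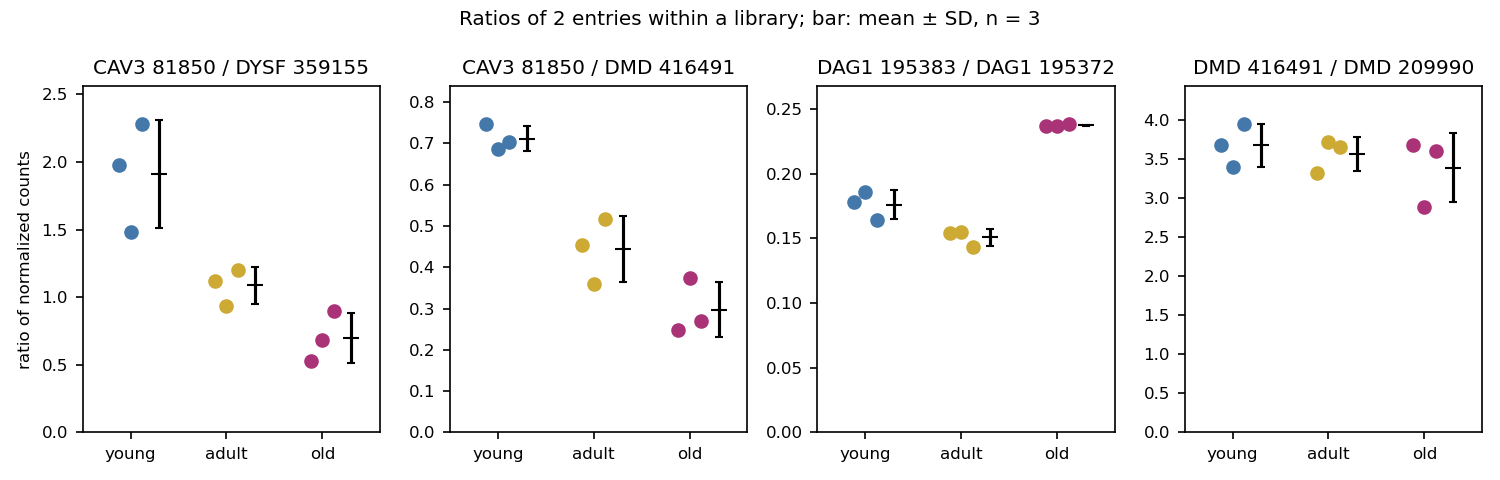
Ratios of normalized counts of 2 entries in the same library (y axis, from 0) in young, adult and old muscle, with the mean ± SD (n = 3). CAV3 81850 relative to DYSF 359155 lies at 1.49 to 2.28 in young, 0.938 to 1.20 in adult and 0.528 to 0.896 in old libraries, DAG1 195383 relative to DAG1 195372 is 0.237 to 0.238 in old libraries, and DMD 416491 relative to DMD 209990 overlaps at all ages.

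Further genes of the same complexes were taken from 4 lists written by name. The other members of the complex (utrophin, syntrophins and other partners) had 29 entries, 19 of them tested. In old against young muscle 2 were called higher and 3 lower, against 7.91% higher and 9.84% lower of all tested entries. The median log2 fold change was 0.25, against -0.03 over all tested entries, and with equal totals these medians were -0.03 and -0.29. In adult against young muscle 2 were called higher and 1 lower (median 0.47), against 10.7% higher and 11.4% lower of all tested entries. In old against adult muscle 0 were called in limma (median -0.20), against 2.09% of all. DRP2, a dystrophin-related protein that forms a complex with periaxin and dystroglycan in mouse Schwann cells, had 4 entries, of which 1 is given here. DRP2 954108 had 28, 30 and 32 normalized counts in young fish, 78, 64 and 62 in adult fish and 88, 92 and 100 in old fish. The 3 ages did not overlap. It was called 2.22-fold higher in adult (log2 fold change 1.15, SE 0.19, adjusted p = 0.0011) and 3.04-fold higher in old muscle (1.61, SE 0.19, adjusted p = 0.00031) against young muscle. PRX 85341, the most abundant of several entries named for periaxin, ranged over 3954 to 5133 in young fish, 11699 to 16890 in adult fish and 15787 to 20189 in old fish. The other tested PRX entries, 654406, 123538 and 887518, were sparse and did not pass in old against young muscle (limma, adjusted p = 0.839, 0.461 and 0.188). The part of periaxin in the DRP2 values was not tested. DTNBB 173826, 1 of 2 entries of that name, had 13, 40 and 24 in young fish, 1, 6 and 4 in adult fish and 2, 9 and 0 in old fish. Its calls were lost without young replicate 2 (adjusted p = 0.123 for adult, 0.0883 for old) or young replicate 3 (0.0852 and 0.0643), the adult call also without adult replicate 1 (0.102) or adult replicate 3 (0.0566). With no filter on low values both calls were lost (0.157 and 0.116), and the adult call also with an added constant of 0.5 (0.0502). NOS1 54531, the nitric oxide synthase held by syntrophin, had 18, 10 and 6 in young fish, 5, 4 and 1 in adult fish and 2, 0 and 3 in old fish. These values are near the floor of detection, and the old against young call was lost without young replicate 3 (adjusted p = 0.0508), old replicate 1 (0.0515) or old replicate 2 (0.0818). That call was also lost with no filter on low values (0.113). Without young replicate 1 or young replicate 2 the entry was under the mean of 5 and was not tested.

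The enzymes that build the laminin-binding sugar of dystroglycan had 15 tested entries. Of these 5 were called lower and none higher in adult against young muscle, against 11.4% lower and 10.7% higher of all tested entries, and the median log2 fold change was -0.48 against -0.0045 over all entries. Old against young muscle had 2 entries called lower and 1 higher (median -0.32), against 9.84% lower and 7.91% higher of all. In old against adult muscle 1 was called higher (median 0.18), against 0.825% of all. POMT2 58446, which with POMT1 adds the first mannose, had 48, 54 and 45 normalized counts in young fish, 15, 16 and 21 in adult fish and 18, 28 and 23 in old fish. It fell in adult muscle, with a log2 fold change of -1.46 (SE 0.26, adjusted p = 0.0018), and in old muscle, with -1.08 (SE 0.26, adjusted p = 0.012), against young muscle. The old call was lost without young replicate 2 (adjusted p = 0.0533) or old replicate 1 (log2 fold change -0.92), and with an added constant of 5 (-0.96). POMT1 4574 had 66, 69 and 56 in young fish, 37, 29 and 25 in adult fish and 33, 34 and 35 in old fish, with a log2 fold change of -1.06 in adult against young muscle (adjusted p = 0.0043) that was under the 2-fold limit without adult replicate 3 (-0.93) or young replicate 2 (-0.998). An added constant of 5 also put it under that limit (-0.97). Both enzymes had every later library below every young one. TMEM5 344014, a xylose transferase of the same chain, had 139, 110 and 87 in young fish, 51, 41 and 61 in adult fish and 62, 62 and 33 in old fish, and its old against young log2 fold change of -1.11 (adjusted p = 0.0151) was -0.95 without young replicate 1 (adjusted p = 0.0641) and -0.82 without old replicate 3. Its call was also lost with no filter on low values (adjusted p = 0.0745). POMGNT2 937617, which extends the mannose, moved the other way in old muscle, with 38, 19 and 38 in young fish, 52, 18 and 20 in adult fish and 201, 147 and 100 in old fish. It was called 4.63-fold higher in old against young (log2 fold change 2.21, SE 0.42, adjusted p = 0.0034) and 5.23-fold higher in old against adult muscle (2.39, adjusted p = 0.018), the second lost without adult replicate 2 (0.0789) or adult replicate 3 (0.0807). The second call was also lost with the 2 ages alone (0.0669) and with no filter on low values (0.125).

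The list of membrane repair and caveola genes had 41 tested entries without a shared direction. In old against young muscle 3 were called higher and 4 lower, against 7.91% and 9.84% of all tested entries (median log2 fold change 0.08, or -0.20 with equal totals, where that of all entries was -0.29). Adult against young muscle had 6 called higher and 2 lower (median 0.21), against 10.7% and 11.4% of all. In old against adult muscle 1 was called lower (median -0.10), against 1.26% of all. AHNAK, a giant protein that binds dysferlin in mammals, had 10 entries, of which 3 are given here. AHNAK 144339 had 1980, 1397 and 1742 normalized counts in young fish, 3605, 4641 and 3800 in adult fish and 2630, 3398 and 3268 in old fish and was called 2.36-fold higher in adult against young muscle (adjusted p = 0.0005). AHNAK 713820 had 87, 291 and 292 in young fish, 3, 4 and 8 in adult fish and 15, 8 and 29 in old fish and was called lower at both later ages (log2 fold changes -5.12 and -3.59, adjusted p = 9.85e-05 and 0.0011). The same name thus held entries of opposite direction. AHNAK 422073 was called 2.02-fold higher in adult against young muscle, with log2 fold changes under the limit with equal totals (0.90), with equal totals without the 20 most abundant entries (0.91), without young replicate 2 (0.84) or without adult replicate 2 (0.93). CAPN1 918278, 1 of 5 entries of a calcium-activated protease, had 34, 125 and 114 in young and 1, 2 and 6 in adult muscle. It was at 0 in all old libraries, at least 30.3-fold lower in old than in young muscle when a floor of 3 counts per library is used. TCAP 518411, a titin-binding protein of the Z-disc, had 1819, 2598 and 2422 in young fish, 13390, 13164 and 8452 in adult fish and 25671, 4920 and 9735 in old fish. It was called 4.75-fold higher in old against young muscle (log2 fold change 2.25, SE 0.46, adjusted p = 0.0048), with a wide spread among the old libraries. Without old replicate 1 the log2 fold change was 1.62, and with no filter on low values the call was lost (adjusted p = 0.0641). CAV2 934651, 1 of 2 entries of a caveolin that is not specific to muscle, had 10, 9 and 10 in young fish, 25, 19 and 17 in adult fish and 13, 35 and 30 in old fish. Its call in old against young muscle (2.35-fold, adjusted p = 0.0315) was lost without any of the young libraries (0.0695 to 0.0891), old replicate 2 (0.0951) or old replicate 3 (0.0849). The call of CAV2 was also lost with equal totals (0.0867), equal totals without the 20 most abundant entries (0.061), no filter (0.0914), the 2 ages alone (0.0559) and the replicate block (0.0515). FER1L6 822099, of the ferlin family to which dysferlin belongs, had 50, 24 and 35 in young fish, 116, 205 and 282 in adult fish and 14, 37 and 72 in old fish. Its lower value in old against adult muscle (log2 fold change -2.45, adjusted p = 0.0313) lost the call without young replicate 3 (0.0555), adult replicate 2 (0.121), adult replicate 3 (0.12) or old replicate 2 (0.0574). The call was also lost with no filter on low values and with the 2 ages alone.

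The costamere partners, which fix the outermost sarcomeres to the membrane beside the dystrophin complex, had 37 tested entries. Against young muscle, old muscle had 7 entries called higher and 2 lower, against 7.91% and 9.84% of all tested entries (median log2 fold change 0.18, or -0.09 with equal totals, where that of all entries was -0.29). Adult against young muscle had 6 called higher and 1 lower (median 0.14), against 10.7% and 11.4% of all. In old against adult muscle 0 were called in limma (median -0.01), against 2.09% of all. ANK2, of ankyrin-B, which in mice helps place dystrophin at the membrane, had 7 entries, of which 2 are given here. ANK2 154210 had 333, 907 and 571 normalized counts in young fish, 2565, 2545 and 2046 in adult fish and 2922, 3157 and 3623 in old fish. It was called 4.26-fold higher in adult (log2 fold change 2.09, SE 0.29, adjusted p = 0.00037) and 5.78-fold higher in old muscle (2.53, SE 0.29, adjusted p = 0.00025) against young muscle, and all later libraries lay above all young ones. ANK2 509062 had 38, 114 and 47 in young fish, 317, 357 and 225 in adult fish and 340, 381 and 492 in old fish (6.68-fold in old against young, adjusted p = 0.00044). VCLA 380804, vinculin, had 1383, 2036 and 1463 in young fish, 4221, 3468 and 3948 in adult fish and 3795, 3374 and 4059 in old fish and was called 2.41-fold higher in adult against young muscle (adjusted p = 0.00037). ANK1 199573, 1 of 2 entries of another ankyrin, had 13, 44 and 29 in young, 2, 0 and 1 in adult and 0 in all old libraries, at least 9.56-fold lower in old than in young muscle by the same floor. FHL1B 506165 had 18, 11 and 27 in young fish, 6, 18 and 13 in adult fish and 6, 4 and 7 in old fish, and its old against young call (log2 fold change -1.50, adjusted p = 0.0349) was lost without young replicate 1 (0.0874), young replicate 3 (0.142), old replicate 1 (0.0651) or old replicate 2 (0.0821). That call was also lost with no filter on low values.

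**Figure D5:**
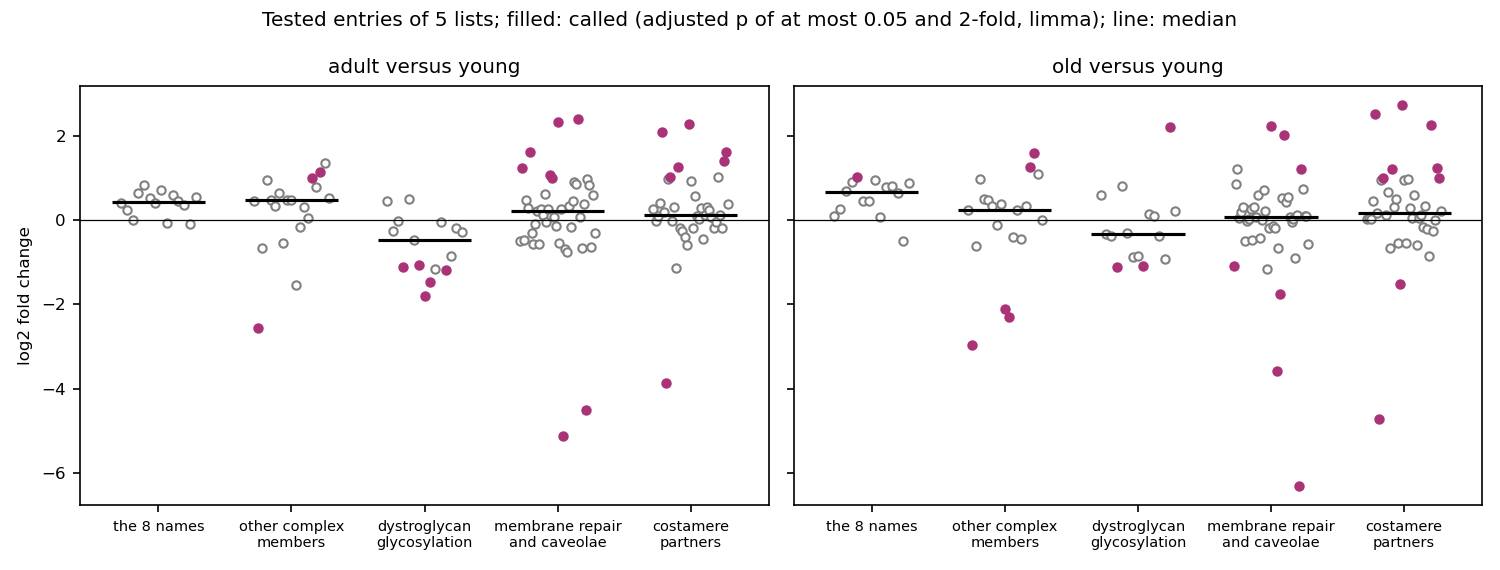
Log2 fold changes (y axis) of the tested entries of the 8 names and of the 4 further lists (x axis) in adult versus young and old versus young muscle; filled points are called (adjusted p up to 0.05 and a 2-fold change in limma), and bars are medians. The 14 entries of the 8 names lie between -0.49 and 1.03 in old versus young muscle while the further lists spread wider in both directions; with equal totals the old versus young medians of the complex, repair and costamere lists turn negative while that of all tested entries is -0.29, below each of them, and the lowest points, with old libraries at 0, depend on the added constant.

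The tested entries whose levels ran most like those of DMD and DYSF were found by Pearson correlation of log2 values over the 9 libraries, which share ages and depth, as a description. Entries with a gene name were searched, and also those that carry only an identifier starting with NFURLNR. For DMD 416491 they were PPM1L 958060, named for a protein phosphatase (r = 0.98), with 39, 39 and 53 normalized counts in young fish, 95, 79 and 75 in adult fish and 119, 65 and 120 in old fish, and NFURLNR04956011110 983071 (r = 0.978). In both, as in DMD, old replicate 2 was the lowest old library. For DYSF 359155 they were ASB2A.1 816217, named for a subunit of a ubiquitin ligase (r = 0.993), with 428, 477 and 436 in young fish, 1145, 914 and 945 in adult fish and 2046, 1234 and 1254 in old fish, and EEF2 565174 (r = 0.99), an entry of the translation elongation factor, with 11657, 11918 and 11590 in young fish, 19115, 16763 and 19805 in adult fish and 25911, 20656 and 18886 in old fish. Old replicate 1 was the highest library in both, as in DYSF 359155. Within the 8 names, the 3 DYSF entries correlated at 0.906 to 0.961, and CAV3 correlated negatively with them, at -0.61 with DYSF 431468.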

How the data were processed

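Whole skeletal muscle RNA of 9 male fish (young, adult and old, n = 3 each, 1 library per fish) was used. The authors trimmed reads (Trimmomatic 0.33), aligned them to the NotFur1 genome (STAR 2.4.2a), counted reads that fit a single place and gene (featureCounts 1.4.5-p1) and normalized with DESeq. The deposited values are a signal: counts divided by 1 size factor per library (estimated at 0.692 to 1.25) and rounded. Between 62.2 and 99.8% of a library's values traced to 1 read number, so tests for raw counts were not run.

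Entries with a mean of at least 5 were tested on log2(value + 1) with limma 3.58.1 in R 4.3.3 (1 mean per age, moderated with a trend, Benjamini-Hochberg over 17454 entries). Fold changes are on this scale and understate changes of low entries. Called entries passed an adjusted p of 0.05 and a 2-fold change. P-values measure the spread between fish. Tables and plots used Python 3.11.15, pandas 2.3.3, numpy 2.4.6 and matplotlib 3.10.9. The procedure was tested on simulated data.

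Entries were matched by name. The members, the 4 gene lists and the 7 lists of cell markers were chosen with earlier results of these data known. All member entries are named, and from each further list at most 2 called entries per direction and comparison with the smallest p; for DMD and for called members, the 2 most correlated entries. An entry that this rule names is not reported here. Cardiac markers summed to 178651 to 229900 normalized counts in young fish, 85225 to 140344 in adult fish and 97121 to 142899 in old fish, led by 2 myosin entries. MYH7 815926 overlapped between the ages. MYH6 202270 held 81654 to 115913 in young fish, 14506 to 21000 in adult fish and 10878 to 21712 in old fish. NPPA and NKX2-5 had no entry, and NPPB, GATA4 and TBX5 were under a mean of 5, so these sums are no measure of heart tissue. Alternatives were other scalings, filters, added constants (0.5 and 5), the 2 ages alone, a replicate block and omission of each library. All 9 columns were used, no 2 libraries were identical, and sequences were not used here.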

Additional observations from a re-analysis of the deposited data

How the results depend on the processing

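With 3 fish per age, 1 library decides several values given above, and old replicate 3 had the fewest reads. Recomputed size factors changed no call of a member entry. Outside omitted libraries, 394 of the member values kept their direction and call, 11 gained a call (all by dropping the 2-fold limit), 3 lost it and 12 changed sign, while of the values of further entries 253 kept their call and 25 lost it with no change of sign.

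Called member entries in old against young muscle numbered 1 as reported, 0 with equal totals, 0 with equal totals without the 20 most abundant entries, 0 with an added constant of 5 and 8 without the 2-fold limit, and in adult against young muscle 4 without that limit instead of 0. DYSF 240877 then had log2 fold changes of 0.75, 0.84 and 0.97. Member entries at an adjusted p of at most 0.05 numbered 2 with equal totals and 7 with the 2 ages alone in adult against young muscle (4 as reported), 4 with equal totals and 5 with no filter in old against young muscle (8 as reported), and 1 with a mean of at least 50 in old against adult muscle (0 as reported). Among all tested entries, calls numbered 1818 with a mean of at least 50 and 5837 without the 2-fold limit in adult against young muscle (3855 as reported), 1400 and 4732 in old against young muscle (3098), and 125 with no filter, 234 with a mean of at least 50 and 75 with the 2 ages alone in old against adult muscle (364). The stricter filter tests fewer entries; the other causes were not tested.

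With equal totals the sign changed for DAG1 195383 in adult against young muscle (-0.10), DAG1 195372 (-0.013), DAG1 382554 (-0.20) and DTNA 128770 (-0.16) in old against young muscle, and DAG1 195372 (-0.14), DAG1 382554 (-0.030) and SGCD 342020 (-0.13) in old against adult muscle. Without the 20 most abundant entries in the totals it changed for DAG1 195383 (-0.092) in adult against young, DAG1 382554 (-0.11) and DTNA 128770 (-0.078) in old against young, and DAG1 195372 (-0.056) and SGCD 342020 (-0.045) in old against adult muscle.

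Leaving out each library in turn, called member entries numbered 0 to 1 in adult against young, 0 to 5 in old against young and 0 to 0 in old against adult muscle, and those at the adjusted p 2 to 6, 5 to 9 and 0 to 1. Calls among all tested entries ranged over 2963 to 4043, 2200 to 3278 and 90 to 534, the last lowest without adult replicate 2 (91 without adult replicate 3, 241 without young replicate 3). Signs changed for DAG1 195383 (-0.077 to 0.15), DAG1 382554 (-0.16 to 0.10) and CAV3 (-0.20 to 0.074) in adult against young muscle, for DAG1 382554 (-0.19 to 0.43) in old against young muscle, and for DMD 416491 (-0.0044 to 0.45), DAG1 195372 (-0.049 to 0.15), DAG1 382554 (-0.13 to 0.49), SGCA (-0.26 to 0.12) and SGCD 342020 (-0.10 to 0.12) in old against adult muscle.

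The labels give each age the numbers 1 to 3, but libraries of the same number did not deviate together (correlations -0.08 to 0.11, against -0.10 to 0.12 for other numbers). With a replicate block, calls among all tested entries numbered 3725, 2966 and 254 in adult against young, old against young and old against adult muscle, called member entries 0, 1 and 0, and those at the adjusted p 4, 9 and 0. In the block fit DMD 416491 (adjusted p = 0.0419) passed and DYSF 431468 (0.0536) did not in adult against young muscle, and CAV3 (0.0406) passed and CAV2 934651 (0.0515) lost its call in old against young muscle.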
